A study of Mus musculus with 6 samples.

Results

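Cell cycle and DNA replication genes were examined in embryonic mouse hearts with and without Hdac3 in the Isl1 lineage. The genes were a named list of 34, taken one array row per gene: among rows annotated with exactly 1 gene symbol, the row with the highest mean over the 6 arrays was used. This gave values for 32 of the 34 genes, out of 22180 genes measured. Ccnb1 had no row with a single symbol, and the row that lists Ccne2 also lists Ints8, so neither was given a value. By role, the 32 comprised 12 replication genes, 5 genes that control the passage from G1 into S phase, and 15 genes of mitosis. None of the 32 passed the test between genotypes, and no measured difference was larger than 1.17-fold. The largest were slightly lower values of Mki67, E2f1 and Ccna2 and a slightly higher value of Aurka, with the replication and mitosis groups both close to 0 at the median.

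The embryos were of strain C57BL/6 at embryonic day 9.5. Controls were Hdac3-flox/flox embryos, in which Hdac3, a histone deacetylase of corepressor complexes, is floxed and for which the labels name no Cre. The compared embryos were Hdac3-flox/flox; Isl1-Cre, called Hdac3-Isl1KO, in which Cre follows Isl1, a gene of the second heart field progenitors that build the outflow tract and right ventricle. Both groups therefore carry the floxed alleles and differ also by the Cre allele. Each group had 3 arrays, each from a pool of hearts, so cells that never expressed Isl1-Cre contributed to every value, and fewer cells of a type cannot be told apart from less RNA per cell.

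A dividing cell duplicates its genome in S phase and separates the copies in mitosis. In G1, cyclin D and cyclin E kinases inactivate the retinoblastoma proteins and release E2F factors, which switch on replication genes. Origins are licensed when Cdc6 helps to load the ring of Mcm2 to Mcm7, the replicative helicase, and DNA synthesis then needs the clamp Pcna and a supply of nucleotides. Genes of mitosis are switched on later, largely through promoter elements called CHR and CCAAT boxes, which bind the MuvB complex and NF-Y. The early heart grows by adding progenitors and by division of the muscle cells of the tube itself, and cycling cells are abundant at this stage.

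The data were log2 values, with array medians between 5.64 and 5.71 and correlations between arrays between 0.980 and 0.989. The array farthest from the rest was Hdac3-flox/flox replicate 2, whose mean correlation was 0.982 against at least 0.985 elsewhere. Hdac3 itself read 9.67, 9.73 and 9.64 in the Hdac3-flox/flox arrays and 9.11, 9.20 and 9.31 in Hdac3-Isl1KO, a difference of -0.47 (limma adjusted p = 0.0636, with values from 0.00111 to 0.244 over the alternatives). The groups did not overlap, and whether this row lies in the deleted part of the gene is not known here. Of 10 cardiomyocyte markers the lowest mean was 9.48 (log2), so the heart label held, and 8 of the 10 were lower in Hdac3-Isl1KO with none past the threshold. Groups did not overlap for 9 of the 10, with 8 lower and 1 higher. When limma's prior variance was allowed to trend with signal, 3 of the 10 passed, where 3.9% of all genes did. The mean log2 level of the cardiomyocyte list was 11.5 in all Hdac3-flox/flox arrays and 11.4 in all Hdac3-Isl1KO arrays. Several lists for other cells also moved with genotype. The mean level of 7 epicardial markers ran from 7.91 to 7.98 in Hdac3-flox/flox and from 7.50 to 7.57 in Hdac3-Isl1KO, and 2 fell. These 7 were uneven, with single differences from -0.94 to 0.001 (median -0.19) and non-overlapping groups for 4 of them. The mean level of 8 liver and yolk sac endoderm markers ran from 5.18 to 5.41 and from 5.75 to 5.81 in the same order, with 1 rising. For 7 epithelial markers it ran from 6.26 to 6.28 and from 6.64 to 6.70. Of these 0 were past the threshold and 7 had an unadjusted limma p under 0.05. For 5 trophoblast markers it ran from 5.86 to 6.04 and from 6.59 to 6.65, with 2 rising. The trophoblast list was uneven, with single differences from -0.04 to 1.81 (median 0.16) and non-overlapping groups for 3 of 5. Over all genes, 0.428% passed the threshold, 14.5% had an unadjusted limma p under 0.05 and 21.8% had non-overlapping groups. Mean levels of the 8 endothelial and endocardial, 4 erythroid and 4 neural crest markers overlapped between genotypes, and none of these genes passed. The part of these other cells in the cell cycle values was not tested.

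The comparison asks whether loss of Hdac3 in the Isl1 lineage changed the cell cycle programme of the heart. With limma, adjusted over all genes, 0 of 32 cell cycle genes passed at 0.05, where 0.428% of all genes did. The smallest adjusted p was 0.219. At an unadjusted p under 0.05 there were 4 of 32, or 12.5%, against 14.5% of all genes, a share near the background. The median difference, Hdac3-Isl1KO minus Hdac3-flox/flox, was -0.033 on the log2 scale, with 12 genes above 0 and 20 below, and the median of all genes was 9.4e-05. Over only the 12480 genes above the median row, which hold all 32, the median was -0.022. Of the 32 differences, 23 were smaller than 0.1 (log2).

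These were bright and steady rows. The 32 genes lay between the 69.7 and 99.5 percentiles of signal, and their median residual SD was 0.056 (log2), against 0.12 for all genes. It was 0.075 for the 112 other pathway genes and 0.030 for the 10 cardiomyocyte markers, which lay at the 94 percentile or above. Residual SD was not compared with genes of like signal. The 95% intervals of all 32 differences lay between -0.40 and 0.35, so their outermost limits were 1.32-fold lower and 1.28-fold higher. Each interval is for a single gene and not for all 32 at once. The array values of the 2 groups did not overlap for 10 of 32 genes, against 21.8% of all genes. In 7 of these Hdac3-Isl1KO was lower (12.4% of all genes) and in 3 it was higher (9.41% of all genes). All 32 lie above the median row, and among the 12480 genes above it 29.5% did not overlap and 18.7% were lower without overlap. The count for the 32 is therefore near the share of genes of higher signal. With arrays centred on their medians the count was 5, made up of 4 lower and 1 higher, against 19.6% of all genes.

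**Figure D1:**
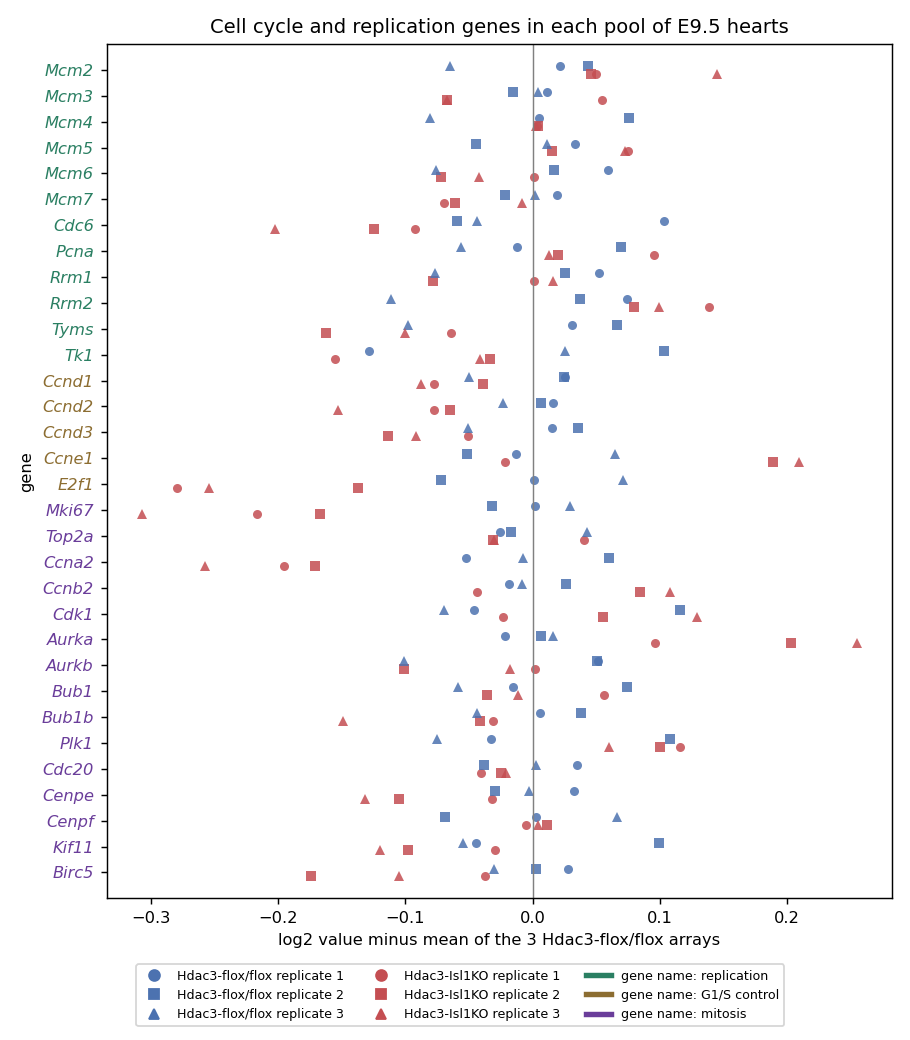
Each point is the log2 value of one gene (rows) in one array minus the mean of the 3 Hdac3-flox/flox arrays (x axis, log2), with blue for Hdac3-flox/flox, red for Hdac3-Isl1KO and the shape giving the replicate. The groups overlap for all but 10 of the 32 genes, and Mki67, Ccna2 and E2f1 lie to the left and Aurka to the right in all 3 Hdac3-Isl1KO arrays.

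Among the replication genes, the helicase subunits differed little between genotypes. The differences of Mcm2 to Mcm7 were 0.08, -0.03, 0.00, 0.05, -0.04 and -0.05 (log2), in that order, with limma adjusted p-values from 0.649 to 0.989. Mcm4 read 9.79, 9.86 and 9.70 in the Hdac3-flox/flox arrays and 9.79 in all 3 Hdac3-Isl1KO arrays, and the sign of its difference turned under quantile normalization. Mcm5 read 10.08, 10.01 and 10.06 against 10.13, 10.07 and 10.12, so its Hdac3-Isl1KO values lay within or just above the range of the controls. Mcm2 read 9.69, 9.71 and 9.60 against 9.71, 9.71 and 9.81. It was the only one of the 6 helicase genes whose groups did not overlap, by a narrow gap. Mcm7 also appears beside the microRNA genes it hosts, Mir25 and Mir93, on rows with several symbols that were not used.

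The licensing factor Cdc6 had the largest replication difference. It read 8.80, 8.63 and 8.65 in Hdac3-flox/flox and 8.60, 8.57 and 8.49 in Hdac3-Isl1KO. Every Hdac3-Isl1KO array was below every control, yet the difference of -0.14 (95% interval -0.32 to 0.04) did not pass (limma adjusted p = 0.455). The sliding clamp gene Pcna read 10.79, 10.87 and 10.75 against 10.90, 10.82 and 10.82, with overlapping groups and a difference of 0.04.

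The nucleotide supply genes pointed in different directions. Rrm2, the regulated subunit of ribonucleotide reductase, read 9.17, 9.14 and 8.99 in Hdac3-flox/flox and 9.24, 9.18 and 9.20 in Hdac3-Isl1KO, a difference of 0.11 (95% interval -0.07 to 0.28, limma adjusted p = 0.568) without overlap. A second, much dimmer Rrm2 row differed by -0.05. Its partner Rrm1, the large subunit, differed by -0.02, with a sign that turned with some arrays left out. Thymidylate synthase, Tyms, read 8.59, 8.63 and 8.46 against 8.50, 8.40 and 8.46, and thymidine kinase, Tk1, 8.85, 9.09 and 9.01 against 8.83, 8.95 and 8.94. The groups overlapped for both, at differences of -0.11 and -0.08, and Tyms has a pseudogene, Tyms-ps, that the array annotation lists beside it on a further row.

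The promoters of these genes were searched for the elements that background knowledge ties to each role. RefSeq promoter windows (GRCm38.p6, 300 bases, from 250 before the start to 50 after it) were found for 28 of the 34 genes, 2 of which had 2 windows. Mcm4, Ccnd1, Ccnd2, Ccne2, Ccna2 and Aurkb were not searched. The E2F element was searched as TTTNNCGC with each N either C or G, on both strands. It was present for 5 of 11 replication genes, 1 of 14 mitosis genes and 0 of 3 G1/S genes with a window, against 2.6% of 27025 genes. The 5 were Mcm3, Mcm5, Mcm6, Mcm7 and Cdc6, and the 3 G1/S genes were Ccnd3, Ccne1 and E2f1. Whether each window holds the main promoter of its gene was not checked, so 0 of 3 does not show that G1/S genes lack the element. The following windows show the arrangement in 2 of the helicase genes and, for contrast, in Mcm2. Capitals mark E2F elements, CCAAT boxes (CCAAT or its complement ATTGG) and CHR elements (TTTGAA or its complement).
Mcm5, chr8:75109259-75109558, plus strand: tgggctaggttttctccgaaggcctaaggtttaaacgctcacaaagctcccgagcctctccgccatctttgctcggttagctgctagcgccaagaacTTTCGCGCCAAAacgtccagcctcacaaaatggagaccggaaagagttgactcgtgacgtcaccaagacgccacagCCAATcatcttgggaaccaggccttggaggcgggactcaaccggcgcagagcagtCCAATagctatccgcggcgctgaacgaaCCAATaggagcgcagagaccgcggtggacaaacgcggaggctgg
Mcm6, chr1:128359656-128359955, minus strand: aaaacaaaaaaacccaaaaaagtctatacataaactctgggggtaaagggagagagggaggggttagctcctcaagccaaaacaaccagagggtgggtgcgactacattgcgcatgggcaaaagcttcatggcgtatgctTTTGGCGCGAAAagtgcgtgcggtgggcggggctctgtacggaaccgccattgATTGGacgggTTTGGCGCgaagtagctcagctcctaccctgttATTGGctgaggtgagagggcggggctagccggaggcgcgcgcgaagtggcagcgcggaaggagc
Mcm2, chr6:88898731-88899030, minus strand: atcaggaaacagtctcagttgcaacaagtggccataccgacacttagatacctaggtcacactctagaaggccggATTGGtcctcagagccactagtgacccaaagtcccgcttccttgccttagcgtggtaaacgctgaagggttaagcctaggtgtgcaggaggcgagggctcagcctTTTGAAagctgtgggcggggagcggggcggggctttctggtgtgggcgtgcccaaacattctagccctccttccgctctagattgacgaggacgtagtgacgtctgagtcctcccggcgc

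In Mcm5 the E2F matches on the 2 strands overlap, with the first at position -153 from the start, and 3 CCAAT boxes follow. Mcm6 has an overlapping pair that begins at -110 and another match at -47. Mcm2 has no E2F match in these letters but a CHR element at -70, the only one in the windows of the 11 replication genes searched. A match is a match of letters and was not tested for binding. The ranges of the measured differences overlapped: the 6 genes with a match ranged from -0.14 to 0.05 (median -0.03) and the 21 measured genes without one from -0.23 to 0.18 (median -0.02).

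The G1/S genes were the role with the lowest median, -0.09 over 5 genes, of which 4 were below 0, and none passed. E2f1, the activator of replication genes, read 7.54, 7.46 and 7.61 in Hdac3-flox/flox and 7.26, 7.40 and 7.28 in Hdac3-Isl1KO. All Hdac3-Isl1KO arrays were below all controls, the difference was -0.22 (95% interval -0.40 to -0.05), and the limma adjusted p was 0.256. E2f1 had the lowest signal of the 32 genes.

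The D cyclins, which couple growth signals to the cycle, were each slightly lower. Ccnd2 read 11.78, 11.78 and 11.75 against 11.69, 11.70 and 11.62, without overlap, at a difference of -0.10 (limma adjusted p = 0.536). Ccnd1 and Ccnd3 differed by -0.07 and -0.09, each with overlapping groups. The cyclin E gene Ccne1 lay the other way at 0.13, reading 8.24, 8.21 and 8.32 against 8.24, 8.45 and 8.47, where replicate 1 of Hdac3-Isl1KO fell inside the control range.

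The mitosis genes held the widest spread of differences, from -0.23 to 0.18, around a median of -0.03, with 6 of 15 above 0 and 9 below. Mki67, the proliferation antigen that coats mitotic chromosomes, read 10.67, 10.63 and 10.70 in Hdac3-flox/flox and 10.45, 10.50 and 10.36 in Hdac3-Isl1KO. All 3 Hdac3-Isl1KO arrays were lower than all controls, at a difference of -0.23 (95% interval -0.39 to -0.07, limma adjusted p = 0.219). Cyclin A2, Ccna2, which drives S phase and entry into mitosis, read 11.02, 11.13 and 11.06 against 10.87, 10.90 and 10.81. These groups did not overlap either, at -0.21 (95% interval -0.37 to -0.05, limma adjusted p = 0.247). Both differences kept their sign with any array left out, Mki67 between -0.26 and -0.19 and Ccna2 between -0.23 and -0.18.

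The variance model decided whether these 2 genes passed. When limma's prior variance was allowed to trend with signal, Mki67 (adjusted p = 0.0169) and Ccna2 (adjusted p = 0.0215) fell in Hdac3-Isl1KO, 2 of 32, where 3.9% of all genes passed. With only genes above the median row tested, 0 of 32 passed, where 4.94% of the 12480 genes did, and Mki67 stood at an adjusted p of 0.0703.

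The mitotic kinases lay on both sides of 0. Aurka, the centrosomal Aurora kinase, read 9.62, 9.65 and 9.66 in Hdac3-flox/flox and 9.74, 9.85 and 9.90 in Hdac3-Isl1KO. Every Hdac3-Isl1KO array was higher, at 0.18 (95% interval 0.02 to 0.35, limma adjusted p = 0.299). Aurkb, the Aurora kinase of the chromosomal passenger complex, differed by -0.04, and Birc5, the survivin subunit of the same complex, read 8.97, 8.94 and 8.91 against 8.90, 8.77 and 8.83, at -0.11 without overlap (limma adjusted p = 0.533). The polo kinase gene Plk1 read 9.81, 9.95 and 9.77 against 9.96, 9.94 and 9.90, with overlapping groups and a difference of 0.09.

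The kinase of mitotic entry and its cyclin differed little. Cdk1 read 9.39, 9.55 and 9.36 in Hdac3-flox/flox and 9.41, 9.49 and 9.56 in Hdac3-Isl1KO, and its B-type cyclin Ccnb2 read 9.96, 10.00 and 9.97 against 9.93, 10.06 and 10.08. Both differed by 0.05 with overlapping groups. The checkpoint kinases Bub1 and Bub1b, which watch chromosome attachment, differed by 0.00 and -0.07, and Cdc20, the activator of the anaphase-promoting complex that they restrain, by -0.03.

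The kinetochore proteins and motors also differed by 0.1 or less. Cenpf differed by 0.00, the kinesin gene Kif11 by -0.08 and the kinetochore motor Cenpe by -0.09, the last with non-overlapping groups at 9.42, 9.36 and 9.38 against 9.36, 9.28 and 9.26. Top2a, the topoisomerase that untangles sister chromatids and is often read beside Mki67, differed by -0.01, at 10.44, 10.45 and 10.51 against 10.50, 10.43 and 10.43. The signs of Bub1, Cenpf and Top2a turned with some arrays left out, and that of Bub1 also under quantile normalization.

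**Figure D2:**
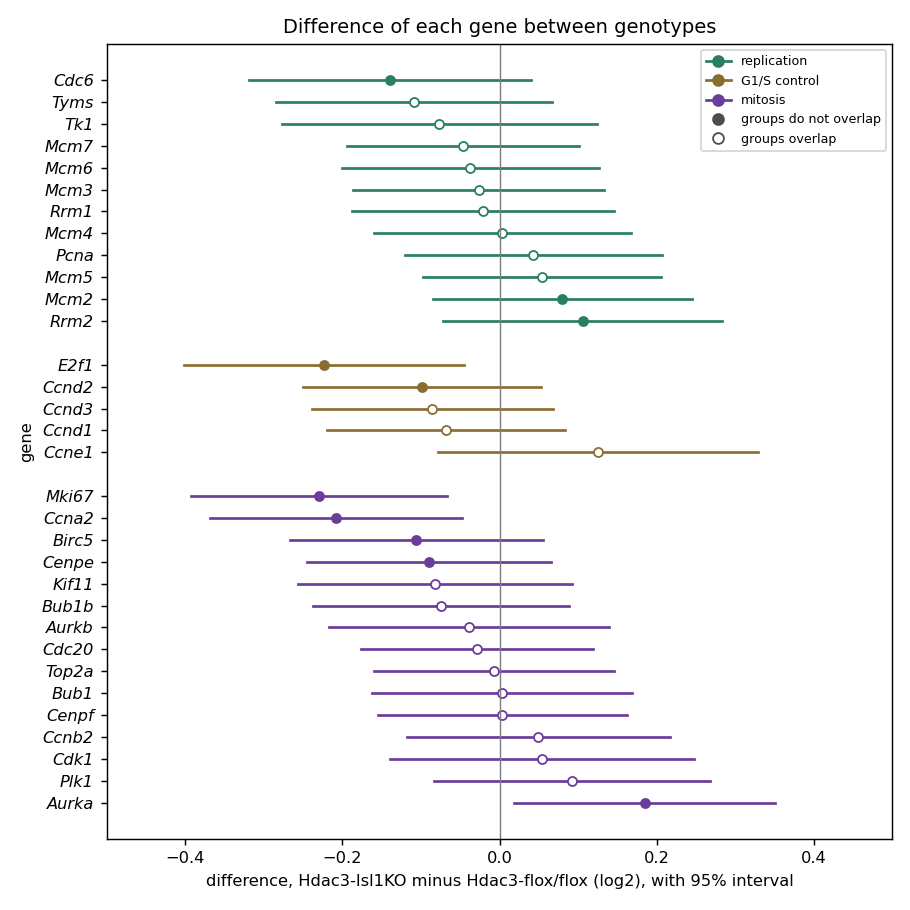
Points are differences between the group means (x axis, log2, Hdac3-Isl1KO minus Hdac3-flox/flox) with 95% intervals from limma, sorted within role, and filled points mark genes whose 3 and 3 arrays do not overlap. Intervals of 4 genes, Mki67, Ccna2, E2f1 and Aurka, leave out 0, and none of the 32 genes passed after adjustment.

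The mitosis promoters carried a different set of elements. A CHR element was found for 10 of 14 mitosis genes with a window and 1 of 11 replication genes, against 20.2% of all genes with a window, and a CCAAT box for 13 of 14 and 8 of 11, against 41.1%. Cdk1 alone among the mitosis genes also held an E2F element. The windows of the mitosis genes with the most negative and most positive differences among those with a window, Mki67 and Aurka, are shown with that of Cdk1, in the same notation.
Mki67, chr7:135716330-135716629, minus strand: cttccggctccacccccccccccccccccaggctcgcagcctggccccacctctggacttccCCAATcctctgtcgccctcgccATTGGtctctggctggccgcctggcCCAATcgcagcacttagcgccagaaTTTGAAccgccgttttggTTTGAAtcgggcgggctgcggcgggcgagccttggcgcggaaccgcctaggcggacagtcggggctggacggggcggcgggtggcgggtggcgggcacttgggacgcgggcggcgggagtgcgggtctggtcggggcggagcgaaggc
Aurka, chr2:172370521-172370820, minus strand: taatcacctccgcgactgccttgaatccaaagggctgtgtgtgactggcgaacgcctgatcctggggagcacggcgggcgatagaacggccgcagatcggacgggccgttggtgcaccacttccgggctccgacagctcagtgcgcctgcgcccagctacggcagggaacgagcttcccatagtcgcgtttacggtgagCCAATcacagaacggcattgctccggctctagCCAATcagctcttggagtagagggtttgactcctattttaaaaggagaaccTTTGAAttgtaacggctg
Cdk1, chr10:69352863-69353162, minus strand: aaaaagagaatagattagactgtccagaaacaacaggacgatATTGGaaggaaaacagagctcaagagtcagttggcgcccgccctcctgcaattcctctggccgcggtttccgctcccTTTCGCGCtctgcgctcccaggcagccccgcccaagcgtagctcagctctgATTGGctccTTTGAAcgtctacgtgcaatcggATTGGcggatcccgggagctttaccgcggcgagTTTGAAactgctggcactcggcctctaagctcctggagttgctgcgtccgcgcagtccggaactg

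Mki67 has 3 CCAAT boxes before 2 CHR elements that begin at -116 and -98. Aurka has CCAAT boxes at -51 and -19 and a CHR element after the start, at 33. Cdk1 has its E2F match at -131 and CHR elements at -71 and -15. Mki67 and Aurka, shown as the extremes, each hold CCAAT boxes and a CHR element. Their differences were -0.23 and 0.18, neither past the threshold, and any tie between elements and array values was not tested. Over all roles the 11 measured genes with a CHR element ranged from -0.23 to 0.18 (median 0.00, 6 above 0 and 5 below), and the 16 without one from -0.22 to 0.13 (median -0.04). The 21 measured genes with a CCAAT box ranged from -0.23 to 0.18 (median -0.01, 10 above 0 and 11 below). The 6 without a CCAAT box ranged from -0.22 to 0.13 (median -0.11, 1 above 0 and 5 below).

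**Figure D3:**
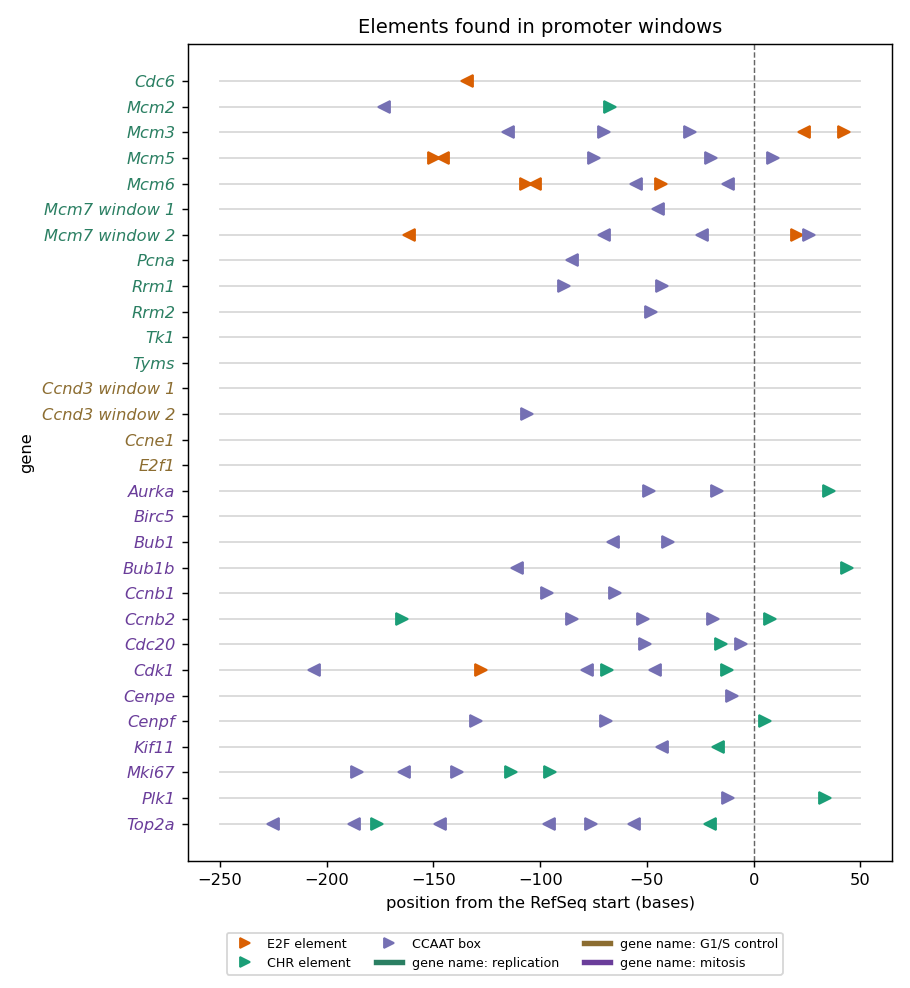
Triangles mark E2F elements, CHR elements and CCAAT boxes by their distance in bases from the RefSeq start (x axis), pointing right on the gene's own strand and left on the other, for each window of a gene (rows, name coloured by role). E2F elements lie in the windows of 5 replication genes and Cdk1, and CHR elements in 10 mitosis genes and Mcm2.

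Replication was then set against mitosis within each array. For every gene the deviation from its own mean over the 6 arrays was taken, these were averaged by role, and the mitosis mean was subtracted from the replication mean. The result was 0.020, -0.011 and -0.036 (log2) in Hdac3-flox/flox replicates 1 to 3 and 0.017, -0.012 and 0.021 in Hdac3-Isl1KO. The groups overlapped, and the difference of 0.018 was smaller than the SD of 0.028 among the Hdac3-flox/flox arrays. With replication limited to the Mcm genes, Pcna, Rrm2 and Tyms, 9 genes, the difference was 0.039, and the groups still overlapped (-0.052 to 0.014 against -0.009 to 0.035). No p-value is given for these averages because the genes were chosen with results known.

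Within a role the averages moved little. The replication mean ran from -0.040 to 0.032 in Hdac3-flox/flox and from -0.029 to 0.010 in Hdac3-Isl1KO, so the lowest and the highest value were both from controls. The mitosis mean ran from -0.004 to 0.042 and from -0.024 to -0.007, without overlap but with a gap narrower than the range within either group. The G1/S mean ran from 0.024 to 0.044 and from -0.066 to 0.002, also without overlap. These role means used the values as deposited, whose array medians ran from 5.64 to 5.71. With arrays centred on their medians, the SD between replicates of the mitosis median was 0.054, against 0.029 as deposited. By array, Hdac3-flox/flox replicate 1 held the highest value of 10 of the 32 genes and Hdac3-Isl1KO replicate 2 of 0, and Hdac3-flox/flox replicate 3 and Hdac3-Isl1KO replicate 3 held the lowest of 9 each.

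**Figure D4:**
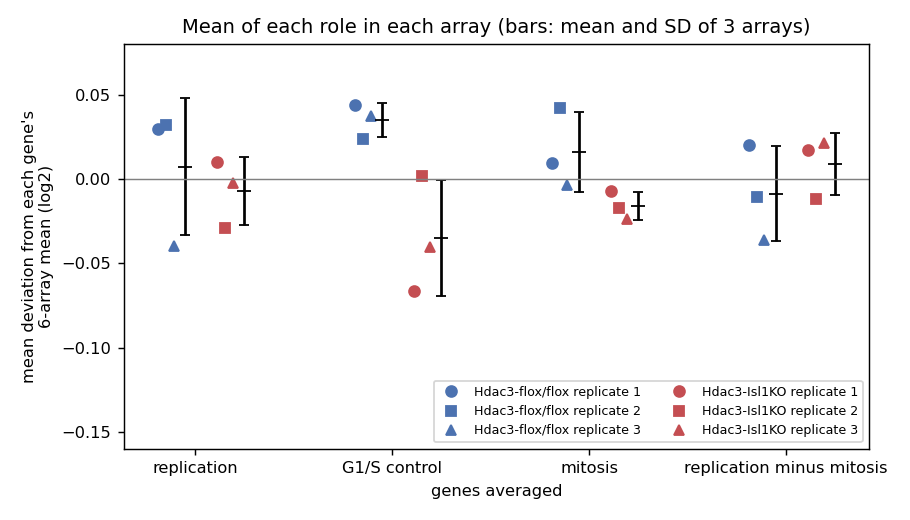
Points are the mean deviation (y axis, log2) of the genes of each role from their 6-array means, per array, and the last column is replication minus mitosis; black bars are the mean and SD of 3 arrays. Groups overlap for replication and for replication minus mitosis, and the G1/S and mitosis means are lower in Hdac3-Isl1KO by 0.070 and 0.032.

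Of 112 other genes of the same pathways, from lists made by role, 1 passed the threshold, where 0.428% of all genes did. Of 42 other replication genes 1 rose and 0 fell (median 0.0003), of 44 other mitosis genes 0 passed (median -0.02, 4 or 9.09% at an unadjusted p under 0.05 with limma) and of 26 other G1/S genes 0 passed (median -0.04, 6 or 23.1% at an unadjusted p under 0.05), where 14.5% of all genes had such a p. Array values of the 2 genotypes did not overlap for 8 (19.0%), 10 (22.7%) and 12 (46.2%) genes of these lists, in that order, against 21.8% of all genes. Of the 12 G1/S genes, 8 were lower and 4 higher in Hdac3-Isl1KO. Mean levels overlapped for the first and second list and not for the third, which ran from 8.37 to 8.43 in Hdac3-flox/flox and from 8.33 to 8.35 in Hdac3-Isl1KO.

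The gene that rose was Rpa3, the smallest subunit of the complex that coats single-stranded DNA. It read 9.33, 9.53 and 9.38 in Hdac3-flox/flox and 10.10, 9.98 and 9.98 in Hdac3-Isl1KO, which is 1.52-fold higher without overlap (limma adjusted p = 0.0431), and a dimmer row of the gene differed by 0.46. It missed the threshold without any 1 of the 6 arrays (0.0669 to 0.178), with arrays centred on their medians (0.0562) and with its rows averaged (0.0677). It also missed with the replicate number as a block, where 0 of all genes passed. Over all alternatives its limma adjusted p ran from 0.000302 to 0.202. Next by p in that list, without passing, were Cdc7 (-0.27), the kinase that fires origins, and Gins4 (0.20), a helicase cofactor. Among mitosis genes these were the spindle gene Hmmr (-0.30), the condensin subunit Ncapd2 (-0.19) and the centrosomal kinase Nek2 (-0.17), and among G1/S genes the pocket protein Rbl1 (-0.27), the cyclin D partner Cdk6 (-0.26) and the MuvB subunit Lin52 (-0.22). Limma adjusted p-values of these 8 ran from 0.159 to 0.332. With the trended prior variance, 7 of the 112 genes of these lists passed, 3 of replication, 1 of mitosis and 3 of G1/S control, where 3.9% of all genes did. Cdc7, Gins4, Hmmr, Rbl1 and Cdk6 were among them, after being picked for their small p.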

How the data were processed

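RNA from 6 pools of embryonic hearts was hybridised to Affymetrix arrays. Values were log2 expression as deposited by the authors. The submitters' processing notes name oligo and RMA, a method that subtracts background, gives arrays a common distribution and summarises probes, which compresses differences of dim rows. Tool versions and the genome build were not given in the sources used here. How many hearts made a pool, and whether pools were of separate litters, is not stated, so p-values reflect only how these pools varied, possibly for technical reasons.

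Of 41345 rows, 23521 had 1 symbol, 1814 several and 16010 none, and 1 row per gene gave 22180 genes. Of the named rows 23328 matched RefSeq (GRCm38.p6) by gene number, including all 32 genes reported. Groups were compared with limma 3.58.1 in R 4.3.3 (lmFit, eBayes with a constant prior, two-sided, Benjamini-Hochberg over all genes, threshold 0.05), tested on simulated data. Figures used matplotlib 3.10.9. Promoters came from RefSeq. A gene with several windows counted if any held the element.

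All 34 listed genes are named, with Hdac3 and, of the other pathway lists, genes past the threshold and up to 3 with the smallest p. Members and lists were chosen with earlier results of these data known. The number of arrays limits the precision. Results were recomputed with the replicate number as a block, with each array left out, and with quantile normalization, median centring, averaged rows, a filter on dim genes, a trended prior, array weights and, for promoters, a shorter window and 1 strand. The narrower replication set was added after the data were seen.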

Additional observations from a re-analysis of the deposited data

How the results depend on the processing

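The count of all genes called moved with the setting: 95 as reported, 149 under quantile normalization, 243 with array weights, 617 with only genes above the median row, 866 with the prior trended on the mean level and 2 to 25 with an array left out (2 without Hdac3-flox/flox replicate 3 or Hdac3-Isl1KO replicate 1, 5 without Hdac3-Isl1KO replicate 3, 6 without Hdac3-flox/flox replicate 1, 9 without Hdac3-Isl1KO replicate 2, 25 without Hdac3-flox/flox replicate 2). The count of cell cycle genes called was 0 in all of these except the trended prior, which gave 2. With the replicate number as a block 0 genes were called in all, but the numbers did not pair the arrays: correlations of same-numbered deviations were -0.013, -0.086 and 0.040, and 0 of 3 Hdac3-flox/flox arrays correlated best with their own number. The count of cell cycle genes whose groups did not overlap was 5 with arrays centred on their medians and 11 to 18 with an array left out, 18 without Hdac3-flox/flox replicate 3 and 17 without Hdac3-Isl1KO replicate 1, where the share of all genes also was higher, 29.2% to 35.2%, with 35.2% and 34.3% in those 2 settings, and 19.6% with centred arrays. Signs near 0 turned: under quantile normalization Mcm4 was -0.00185 and Bub1 -0.00194, and with an array left out Mcm4 ran from -0.0367 to 0.0413, Rrm1 from -0.0590 to 0.00820, Top2a from -0.0305 to 0.0144, Bub1 from -0.0264 to 0.0401 and Cenpf from -0.0308 to 0.0365. The cause was not tested. The medians of all members, replication and mitosis, and the replication minus mitosis value moved by less than the spread between replicates in every alternative run. The count of replication genes with an E2F element was 5 in the shorter window and 4 on the forward strand, and that of mitosis genes with a CHR element 10 and 9. Shares of all genes moved more: on the forward strand 1.38% held an E2F element, 11.6% a CHR element and 23.7% a CCAAT box, with 5 of 11 replication genes holding a CCAAT box, and in the shorter window 12.8% held a CHR element. Of 546 values of single named genes over the alternatives, 512 kept their direction and side of the threshold.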
